A study of Sorghum bicolor with 64 samples.

Results

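The comparison described here sets *dd* against *DD* sorghum in intact stems sampled 3 d after the day on which other plants had their heads removed. Its members are the 8 stem samples whose labels give control treatment and 3 d, 4 of each genotype, out of 29 stem samples with a column of values and 64 labelled samples in all. Every one of the 16942 genes of the stem table was tested. Plants of both groups belonged to near-isogenic lines of the *D* (*Dry Stalk*) locus in the Tx623 background and grew outdoors in a field, and both kept their heads. *DD* plants, with white leaf midribs and dry stems, carry the dominant allele of *SbNAC074A*, the gene of the *D* locus on chromosome 6. *dd* plants, with green midribs and juicy stems, carry a recessive allele whose NAC protein is truncated. The tissue was inner stem of internode 4 counted from the top, its outside having been cut away. An effect of *SbNAC074A* and an effect of neighbouring genes carried along with the locus cannot be told apart in this contrast. The same holds for any difference left between the lines elsewhere in the genome.

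NAC proteins are plant transcription factors, several of which switch on the final steps of vessel and fibre formation, in which a cell thickens its wall, digests its own content and dies. In sorghum, *SbNAC074A* is known to promote the death of pith parenchyma cells, which leaves air spaces in the stem. The enzymes that carry out such a death include papain-like cysteine proteases of the XCP type (known from xylem vessels of *Arabidopsis*), vacuolar processing enzymes, metacaspases and S1-type nucleases. A stem whose pith stays alive can go on storing water and sugar in its vacuoles.

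Values are TPM, a transcript level scaled for gene length and library size, and differences are given as *dd* minus *DD* on the log2(TPM + 1) scale with the standard error, which understates the change of genes with low values. A gene passed the test at an adjusted p below 0.01 (limma, Benjamini and Hochberg over all genes) and counted as a differentially expressed gene (DEG) where the difference was also at least 1 in size. The 8 columns sum to between 994406 and 996154 TPM and correlate with one another at 0.947 to 0.988 across genes. On the first principal component of these samples (33.2% of the variance) *dd* replicates 3 and 4 lay at -36.0 and -43.9, away from *dd* replicates 1 and 2 at 18.8 and 0.3 and from the *DD* samples at -2.4 to 27.1. On the second component (27.5%) *dd* replicate 2 stood alone at 49.3, against -32.2 to 5.6 for the other 7 samples. Counts are therefore also given without *dd* replicates 3 and 4 and without *dd* replicate 2. In bulk tissue, fewer cells of a type and less RNA per cell cannot be told apart.

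Few genes passed the test with 4 against 4 samples, and most of them were lower in *dd*. Of 16942 genes, 58 passed the test (0.342%), of which 48 were lower in *dd* (0.283%) and 10 were higher (0.0590%). DEGs numbered 38, with 33 lower and 5 higher. With quantile normalization the split was 17 higher and 40 lower, and with only the 8 samples fitted 7 higher and 16 lower. The fit of only the 8 samples kept 19 of the 58 genes and lost 39. Losses in fits with fewer samples are not given for every gene below. At an unadjusted p under 0.05, 1778 genes were lower in *dd* (10.5%) and 962 higher (5.68%), and the median difference over all genes was -0.06. These shares are the background for the unadjusted counts of gene lists below. No such shares were counted for the fit without *dd* replicates 3 and 4, whose median difference over all genes was -0.035. List counts from that fit therefore have no background beside them. The 4 *dd* samples all lay below the 4 *DD* samples for 6.43% of genes and all above them for 3.55%. None of the 58 genes overlapped between the groups, which follows largely from choosing them by a contrast of these same samples. Remarks below that the groups of a gene past the test were apart are descriptions only. Without *dd* replicates 3 and 4 the count past the test was 23, with 9 higher and 14 lower and 19 of the 58 genes among them, without *dd* replicate 2 it was 43, with 9 higher and 34 lower, and without *dd* replicate 1 it was 96, with 18 higher and 78 lower. Leaving out *DD* replicate 2 took the lower genes to 28 and the DEGs to 25.

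**Figure D1:**
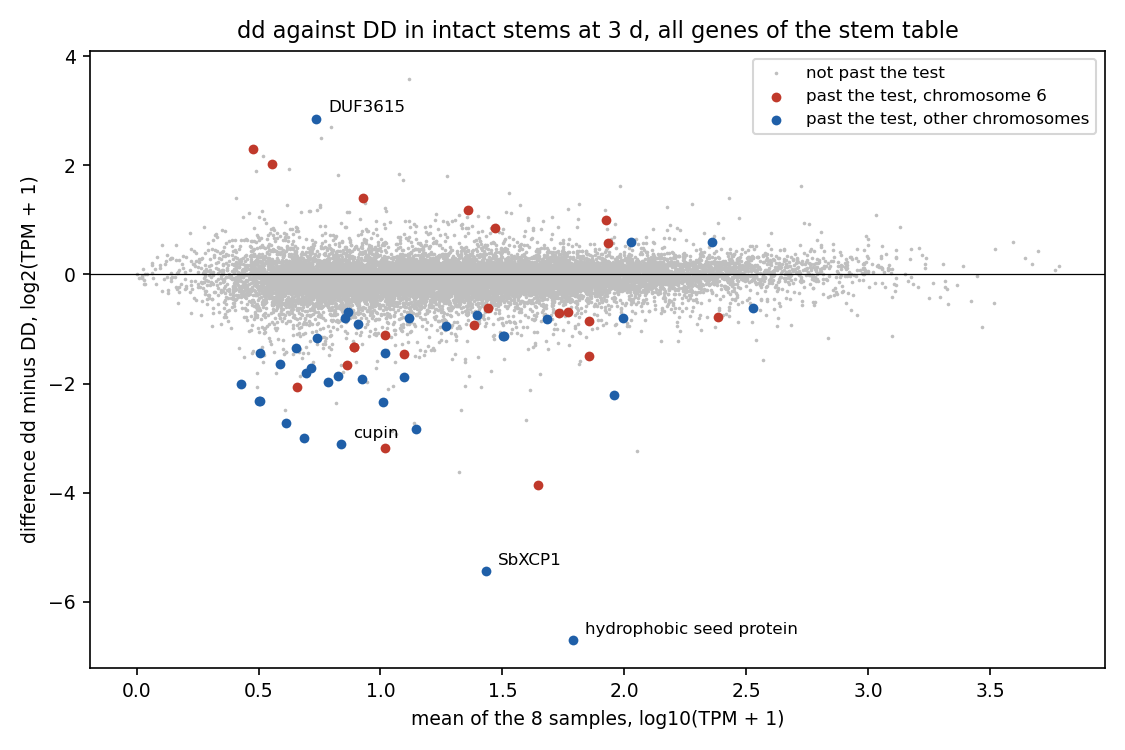
Difference between *dd* and *DD* intact stems at 3 d (log2(TPM + 1), vertical) against the mean level of the 8 samples (log10(TPM + 1), horizontal), with 1 point per gene of the stem table and the 58 genes past the test in colour (red for chromosome 6, blue for other chromosomes). *SbXCP1* at -5.44 and a hydrophobic seed protein gene at -6.70 lie below all other points, and 10 coloured points lie above zero.

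The transcript of *SbNAC074A* itself (*Sobic.006G147400*) did not separate the lines. It stood at 12.95, 32.05, 24.19 and 17.21 TPM in *DD* and at 20.4, 53.9, 17.9 and 7.13 TPM in *dd*, so that the *dd* samples spanned the whole *DD* range. The difference was -0.06 ± 0.64 (adjusted p = 0.975). Since the *dd* allele differs in the protein it encodes, this level is no check of the genotype labels. Of the 58 genes, which were chosen on 8 of these samples, 13 held the 14 *DD* and the 15 *dd* stem samples of all treatments and days fully apart, 10 of them on chromosome 6. Among all 16942 genes 18 did so (0.106%).

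A cysteine protease of the XCP type was close to absent from *dd* stems. *SbXCP1* (*Sobic.007G172100*), described as a cysteine protease of the papain family, measured 34.3, 57.5, 84.1 and 31.8 TPM in *DD* and 0.0770, 0.196, 0.0604 and 0.187 TPM in *dd*. Group means were 51.9 ± 24.4 and 0.130 ± 0.0713 TPM (SD, n = 4), a log2 difference of -5.44 ± 0.80 (adjusted p = 3.56e-04). Every *DD* sample was far above every *dd* sample, although the *DD* samples themselves ranged widely. The adjusted p was 0.0146 without *dd* replicates 3 and 4 and stayed under 0.01 in the other alternatives run.

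Genes for some other digestive enzymes followed the same direction at lower levels, and whether they act in dying cells was not tested. A gene described as an S1 nuclease (*Sobic.006G244400*), a class that cuts single-stranded nucleic acids, fell from 4.27, 9.35, 6.96 and 4.72 TPM in *DD* to 1.33, 1.05, 0.493 and 0.135 TPM in *dd* (-2.06 ± 0.36, adjusted p = 0.00262). A gene of the hemoglobinase family (*Sobic.009G257400*), to which the plant vacuolar processing enzymes belong, fell from 3.83, 5.46, 5.91 and 4.02 TPM to 1.51, 0.659, 1.20 and 0.263 TPM (-1.64 ± 0.30, adjusted p = 0.00416). Neither pair of groups overlapped. Both genes missed the test with quantile normalization, with only intact stems fitted, and without *DD* replicate 2, *DD* replicate 3 or *dd* replicate 4. The nuclease gene *Sobic.006G244400* missed it also without *dd* replicate 3 and the gene *Sobic.009G257400* without *dd* replicate 2, and the highest adjusted p were 0.0785 and 0.053, without *dd* replicates 3 and 4. An aspartyl protease (*Sobic.005G224500*) went from 15.6, 23.8, 10.8 and 24.9 TPM in *DD* to 6.06, 2.68, 4.69 and 3.67 TPM in *dd* (-1.88 ± 0.32, adjusted p = 0.00162), and no sample crossed over. The call was lost in 6 of 19 alternatives, among them without *DD* replicate 2, *DD* replicate 4 or *dd* replicate 2, with an adjusted p of up to 0.0323. This gene was the only 1 past the test of 81 aspartyl and serine protease genes. At an unadjusted p under 0.05, 5 of the 81 were higher and 9 lower, beside 5.68% and 10.5% of all genes.

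The cell death genes did not move as a class. Of 35 measured members of a list of papain-type proteases, metacaspases, vacuolar processing enzymes, bifunctional nucleases and related genes, 3 were lower past the test, none was higher, and the list's median difference was -0.0034 beside -0.06 for all genes. At an unadjusted p under 0.05, 4 members were higher and 6 lower, beside 5.68% and 10.5% of all genes. The homolog of the *Arabidopsis* nuclease gene *BFN1* (*Sobic.003G087200*) showed 146, 164, 144 and 148 TPM in *DD* and 235, 319, 116 and 80.4 TPM in *dd*, a difference of 0.11 ± 0.38 (adjusted p = 0.913). A metacaspase gene of the study (*Sobic.004G187200*) lay between 0.289 and 5.64 TPM in *DD* and between 0.201 and 4.50 TPM in *dd* (adjusted p = 0.93), and its serine carboxypeptidase (*Sobic.004G010000*) gave -1.14 ± 0.55 (adjusted p = 0.308) with overlapping groups. Another metacaspase gene (*Sobic.004G085800*, chosen after its values were seen) averaged 3.83 TPM in *DD* and 0.378 TPM in *dd* (adjusted p = 0.0271).

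The steepest fall of all was in a gene for a small hydrophobic seed protein (*Sobic.005G046700*), a family named for a protein of soybean seeds. It measured 132, 90.9, 163 and 97.5 TPM in *DD* and 0.208, 0.141, 0.0543 and 0.168 TPM in *dd*, a difference of -6.70 ± 0.73 (adjusted p = 4.57e-06). A cupin gene (*Sobic.001G469300*), of the fold that seed storage globulins share, measured 14.8, 13.0, 8.39 and 9.09 TPM in *DD* and 0.396, 0.514, 0.672 and 0.0534 TPM in *dd* (-3.11 ± 0.32, adjusted p = 2.16e-06). In both genes the *dd* samples were all under 1 TPM. Among the 58 genes, 11 averaged under 1 TPM in *dd* and 3 under 1 TPM in *DD*. Of 18 seed or embryo markers, 1 was lower past the test (the hydrophobic seed protein), none was higher, and the median was -0.04.

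**Figure D2:**
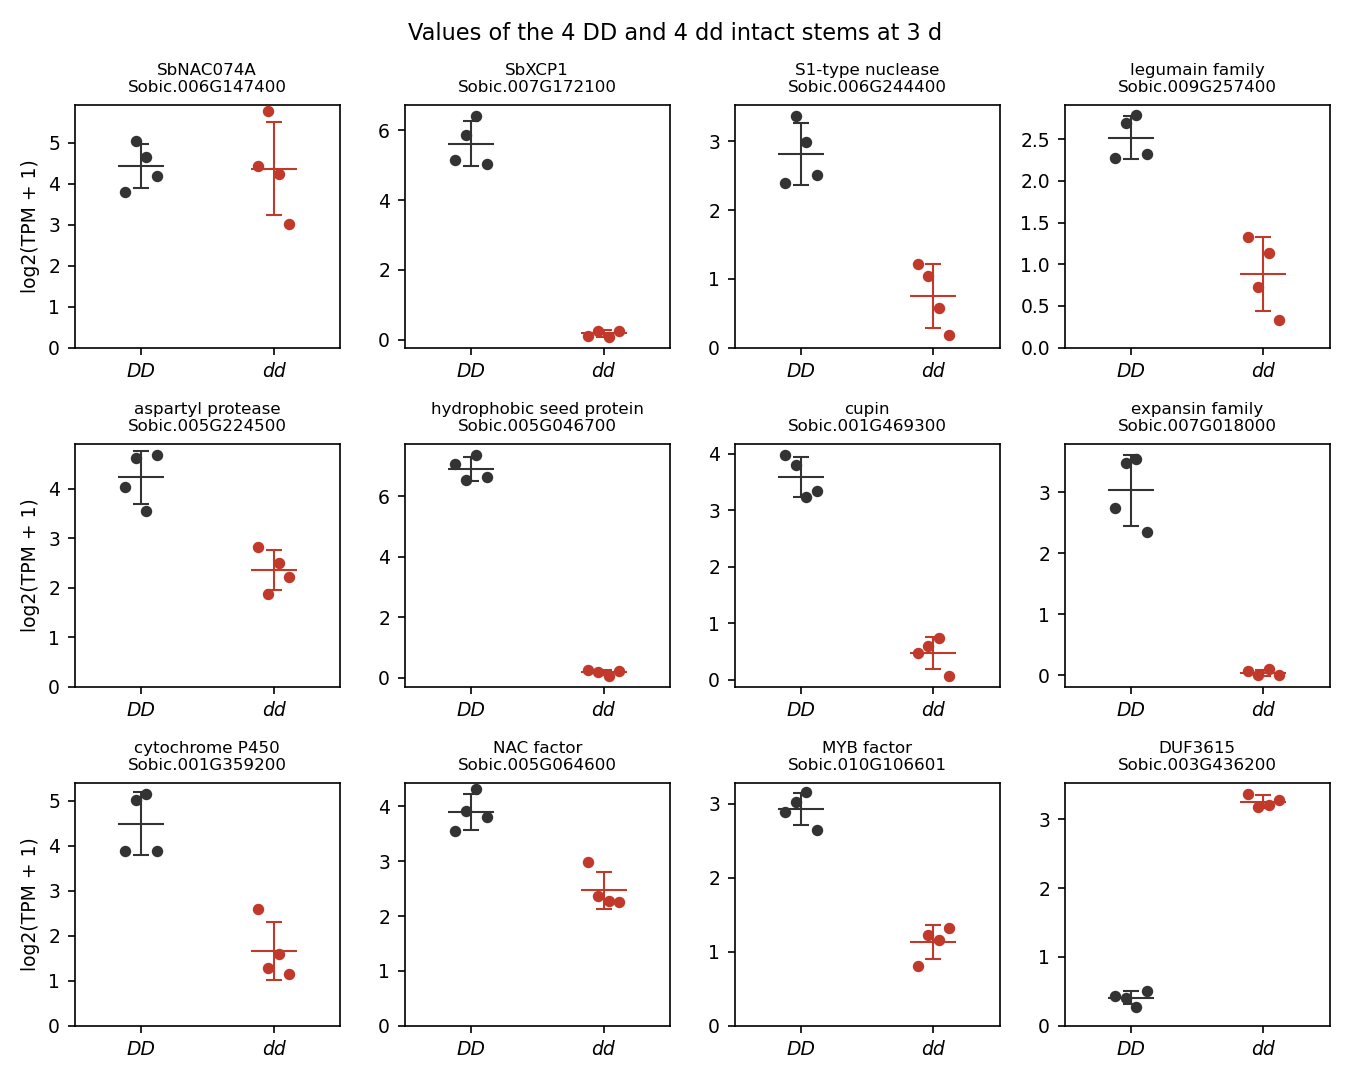
Log2(TPM + 1) in each of the 4 *DD* (black) and 4 *dd* (red) intact stems at 3 d for 12 genes, with 1 point per sample, the mean as a line and the SD as the error bar. The 2 groups overlap for *SbNAC074A*, which spans 12.95 to 32.05 TPM in *DD* and 7.13 to 53.9 TPM in *dd*. They are apart in the other 11 panels, 10 of them with *dd* low, whose genes passed the test on these samples.

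Expansins loosen the wall by letting cellulose and its matrix slip, and 2 genes with the expansin domain pair were lower in *dd*. One of them (*Sobic.007G018000*) measured 5.73, 10.2, 10.7 and 4.085 TPM in *DD* and 0.0458, 0, 0.0719 and 0 TPM in *dd*, a difference of -2.99 ± 0.40 (adjusted p = 1.1e-04). The other (*Sobic.001G301300*) measured 3.05, 3.61, 4.88 and 1.70 TPM in *DD* and 0, 0.0465, 0.0359 and 0.0555 TPM in *dd* (-2.005 ± 0.35, adjusted p = 0.00283), a call lost in 7 of 18 alternatives, among them without *DD* replicate 2 or 3 or *dd* replicate 2, 3 or 4 (adjusted p up to 0.0315). A gene with a plastocyanin-like domain (*Sobic.002G140300*), found in copper-binding proteins of the cell surface, held 21.7, 23.7, 9.21 and 10.8 TPM in *DD* and 2.015, 1.97, 2.25 and 2.54 TPM in *dd* (-2.34 ± 0.27, adjusted p = 9.37e-06). The 4 *DD* samples of this gene form a high and a low pair, both above all *dd* samples. A caleosin-related gene (*Sobic.001G452200*), of a calcium-binding family known from oil bodies, also passed, with 2.97, 4.19, 8.01 and 2.54 TPM in *DD* and at most 0.0381 TPM in *dd* (-2.32 ± 0.35, adjusted p = 4.59e-04).

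Transcription factors with lower levels in *dd* came from several families. A NAC gene other than *SbNAC074A* (*Sobic.005G064600*) stood at 10.67, 14.16, 18.95 and 12.96 TPM in *DD* and at 6.89, 4.14, 3.83 and 3.76 TPM in *dd* (-1.43 ± 0.19, adjusted p = 7.23e-05). It was the 1 member of 39 measured NAC genes past the test. The MYB gene *Sobic.010G106601* stood at 6.38, 7.12, 7.96 and 5.27 TPM against 0.743, 1.34, 1.23 and 1.505 TPM (-1.80 ± 0.24, adjusted p = 9.49e-05), and a second MYB gene on chromosome 6 (*Sobic.006G148000*) at 16.9, 13.8, 11.5 and 10.6 TPM against 8.05, 5.03, 5.90 and 3.78 TPM (-1.10 ± 0.16, adjusted p = 3.72e-04). In all 3 genes the lowest *DD* sample exceeded the highest *dd* sample. With only the 8 samples fitted, the calls of *Sobic.005G064600* and *Sobic.006G148000* were lost (adjusted p = 0.0291 and 0.0681). Both were lost also without *dd* replicates 3 and 4 (adjusted p = 0.0112 and 0.0186). The call of *Sobic.006G148000* was lost with only the 15 intact stems fitted as well (adjusted p = 0.013). An auxin response factor gene (*Sobic.004G051900*), whose family binds auxin-responsive promoters, went from 77.3, 59.1, 57.4 and 48.1 TPM to 40.6, 27.2, 29.6 and 38.6 TPM (-0.81 ± 0.16, adjusted p = 0.00729). Its call was lost in 9 of 19 alternatives (adjusted p up to 0.0823), among them without *DD* replicate 1, 2 or 3 or *dd* replicate 2 or 3. A response regulator gene (*Sobic.004G178000*), of the class that relays cytokinin signals, went from 32.4, 58.7, 45.0 and 35.9 TPM to 16.8, 17.1, 15.6 and 27.0 TPM (-1.13 ± 0.21, adjusted p = 0.00543), a call lost in 11 of 19 alternatives (adjusted p up to 0.0694), among them median-of-ratios and quantile scaling and the fits without *DD* replicate 2 or 3 or *dd* replicate 1, 2 or 3.

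A zinc finger gene of the OVO type (*Sobic.009G028300*, named after its values were seen) measured 2.92, 5.41, 2.98 and 3.53 TPM in *DD* and 1.05, 0.822, 0.577 and 0.440 TPM in *dd*, without overlap (-1.44 ± 0.20, adjusted p = 2.59e-04). Factor genes that the study names did not pass in this contrast of 4 against 4 samples. *SbMIF* (*Sobic.008G020700*), a mini zinc finger gene, gave 227, 315, 372 and 342 TPM in *DD* and 309, 270, 158 and 158 TPM in *dd* (-0.53 ± 0.33, adjusted p = 0.431). *SbbHLH093* (*Sobic.001G513700*) gave 44.5, 116, 46.0 and 63.8 TPM in *DD* and 30.04, 29.35, 18.35 and 4.701 TPM in *dd*, with no overlap of the groups but a wide spread (-1.82 ± 0.58, adjusted p = 0.123). Its difference was -2.44 in intact stems at 10 d, and -0.89 and -0.85 in decapitated stems at 3 and 10 d, none past the test. The study reported this gene as lower in *dd* from a genotype term fitted over all stem samples, which is a different comparison. Of 39 NAC genes, 9 were lower and none higher at an unadjusted p under 0.05, with a median difference of -0.17. Of all genes, 10.5% were lower and 5.68% higher at that threshold. Of 85 MYB genes, 2 were lower past the test and the median was -0.07. For bHLH, WRKY and AP2 factors no member passed, with 8 of 23, 6 of 33 and 1 of 32 lower and 1, 0 and 1 higher at an unadjusted p under 0.05.

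Other genes past the test encode enzymes, carriers and kinases. A cytochrome P450 gene (*Sobic.001G359200*) held 13.9, 31.6, 34.8 and 13.7 TPM in *DD* and 5.04, 1.44, 2.03 and 1.23 TPM in *dd* (-2.83 ± 0.40, adjusted p = 2.52e-04), the 1 gene called of 49 in its list. Allene oxide cyclase (*Sobic.001G329800*), which makes a precursor of jasmonate, held 30.3, 32.0, 28.6 and 29.5 TPM against 21.97, 14.1, 17.7 and 17.3 TPM (-0.74 ± 0.12, adjusted p = 0.00143), and missed the test without *DD* replicate 2 (adjusted p = 0.0105) or *dd* replicate 2 (adjusted p = 0.0114). The entry enzyme of plastid isoprenoid synthesis, 1-deoxy-D-xylulose-5-phosphate synthase (*Sobic.009G135500*), held 128, 107, 134 and 126 TPM against 87.6, 64.2, 66.7 and 65.9 TPM (-0.80 ± 0.13, adjusted p = 0.00134). Each of these genes was lower in every *dd* sample than in any *DD* sample. The phosphate transporter gene *Sobic.001G234800* fell by 1.92 ± 0.33 on the log2 scale, from a mean of 12.2 to 2.65 TPM, and the kinase gene *Sobic.005G208100* fell by 1.12 ± 0.18, from 42.5 to 19.2 TPM. The first missed the test without *DD* replicate 2 or *dd* replicate 3 or 4 (adjusted p = 0.016, 0.0129 and 0.0134), and the second without *DD* replicate 2 or *dd* replicate 4 (adjusted p = 0.0113 and 0.0101). A gene for an uncharacterized protein (*Sobic.007G126800*) had the highest mean level among the DEGs, with 119, 222, 130 and 118 TPM in *DD* and 36.9, 46.7, 21.7 and 21.1 TPM in *dd* (-2.21 ± 0.35, adjusted p = 6.86e-04).

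Further genes past the test, most of them named after their values were seen, were all lower in *dd*. Protein kinase genes, which relay signals by phosphorylation, included *Sobic.003G363200* (7.55, 12.95, 4.202 and 10.2 TPM in *DD*, 2.06, 1.82, 1.66 and 0.254 TPM in *dd*, -1.98 ± 0.35), *Sobic.006G140000* (18.9, 17.9, 16.5 and 15.8 TPM against 5.29, 4.50, 6.14 and 6.67 TPM, -1.47 ± 0.27), *Sobic.003G296700* (-1.36 ± 0.19) and *Sobic.001G063600* (-1.16 ± 0.19). The call of *Sobic.006G140000* was lost without any 1 of the 8 samples (adjusted p up to 0.0279), that of *Sobic.003G363200* without *DD* replicate 2 or 4 or *dd* replicate 4 (up to 0.0241), and that of *Sobic.001G063600* without *DD* replicate 2 or *dd* replicate 2 (up to 0.0128). A zinc finger gene of the FLZ type (*Sobic.004G278300*) had 7.25, 13.5, 8.20 and 8.77 TPM in *DD* and 2.29, 1.70, 3.38 and 0.581 TPM in *dd* (-1.86 ± 0.36, adjusted p = 0.00868), a call lost in 14 of 18 alternatives (adjusted p up to 0.0469), among them median-of-ratios and quantile scaling and the fits without any 1 of the 8 samples except *dd* replicate 3. Among genes of no known function, *Sobic.009G198600* had 4.05, 6.85, 8.24 and 5.50 TPM in *DD* and 0.115, 0.117, 0 and 0 TPM in *dd* (-2.73 ± 0.40, adjusted p = 3.57e-04). The undescribed gene *Sobic.005G110505* had 3.77, 6.72, 3.77 and 3.02 TPM in *DD*, against 0, 0, 0.117 and 0 TPM in *dd* (-2.33 ± 0.25, adjusted p = 4.85e-06). A chromosome 6 gene of an unnamed family (*Sobic.006G103900*) had 115, 111, 85.5 and 102 TPM in *DD* and 52.4, 30.6, 38.2 and 26.7 TPM in *dd* (-1.50 ± 0.21, adjusted p = 2.67e-04). The groups were apart in each of these genes.

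In *dd*, 10 genes were higher, and 7 of them lie on chromosome 6. The clearest, however, lies on chromosome 3: a gene of unknown function with the DUF3615 domain (*Sobic.003G436200*) measured 0.349, 0.328, 0.210 and 0.413 TPM in *DD* and 9.385, 8.04, 8.22 and 8.72 TPM in *dd* (2.86 ± 0.16, adjusted p = 3.76e-11). On chromosome 6, an undescribed gene (*Sobic.006G152100*) was listed at 0 in all 4 *DD* samples and measured 4.94, 4.29, 2.84 and 3.92 TPM in *dd* (adjusted p = 1.12e-08). An extended synaptotagmin gene (*Sobic.006G119600*), of a family that tethers the endoplasmic reticulum to the plasma membrane, measured 0.415, 0.503, 0.346 and 0.378 TPM in *DD* and 5.01, 6.35, 4.05 and 3.75 TPM in *dd* (2.02 ± 0.21, adjusted p = 2.16e-06). In these genes the *dd* samples were tightly grouped and the *DD* samples were all under 1 TPM.

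The other genes higher in *dd* were present in both lines. A cellulase gene (*Sobic.006G122200*), an enzyme that cuts glucan chains of the wall, rose from 3.15, 3.94, 4.36 and 3.26 TPM to 10.8, 12.2, 10.0 and 12.4 TPM (1.40 ± 0.15, adjusted p = 4.12e-06). A ribosome recycling factor gene (*Sobic.006G129900*), which frees ribosomes after termination, rose from 14.54, 12.56, 10.98 and 13.65 TPM to 29.99, 27.0, 34.95 and 30.81 TPM (1.19 ± 0.11, adjusted p = 2.52e-07). A raffinose synthase gene (*Sobic.006G122400*), which adds galactose to sucrose, rose from 56.8, 50.4, 61.9 and 50.7 TPM to 126, 125, 107 and 86.4 TPM (0.99 ± 0.16, adjusted p = 8.34e-04). The 2 groups were apart in each of the 3 genes. Smaller rises were those of the proteasome subunit gene *RPN7* (*Sobic.006G126000*, 0.86 ± 0.10), the Elongator subunit gene *ELP3* (*Sobic.006G125900*, 0.58 ± 0.09), a cytochrome c oxidase subunit gene on chromosome 3 (*Sobic.003G218400*, 0.60 ± 0.10) and a gene with a DUF1664 domain on chromosome 2 (*Sobic.002G244100*, 0.59 ± 0.09). The call of *Sobic.003G218400* was lost without *DD* replicate 3 (adjusted p = 0.0124) or *dd* replicate 2 (adjusted p = 0.0114).

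The genes past the test were unevenly spread over the chromosomes. Chromosome 6 held 22 of its 1499 tested genes past the test (1.47%), and chromosome 5 held 6 of 802 (0.748%). No other chromosome exceeded 0.277%, and chromosome 8 had none of 897. Within chromosome 6, counted in fixed runs of 100 consecutive tested genes with *SbNAC074A* at the centre of one, the central run held 4 genes past the test and the 2 runs before it held 8 and 6. No other run held more than 1. Those 3 runs, picked after their counts were seen, made up 18 of 300 genes (6%, 7 higher and 11 lower), beside 4 of 1199 (0.334%) on the rest of the chromosome. The run after the central one held none, so the genes extended mainly to one side of *SbNAC074A*.

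**Figure D3:**
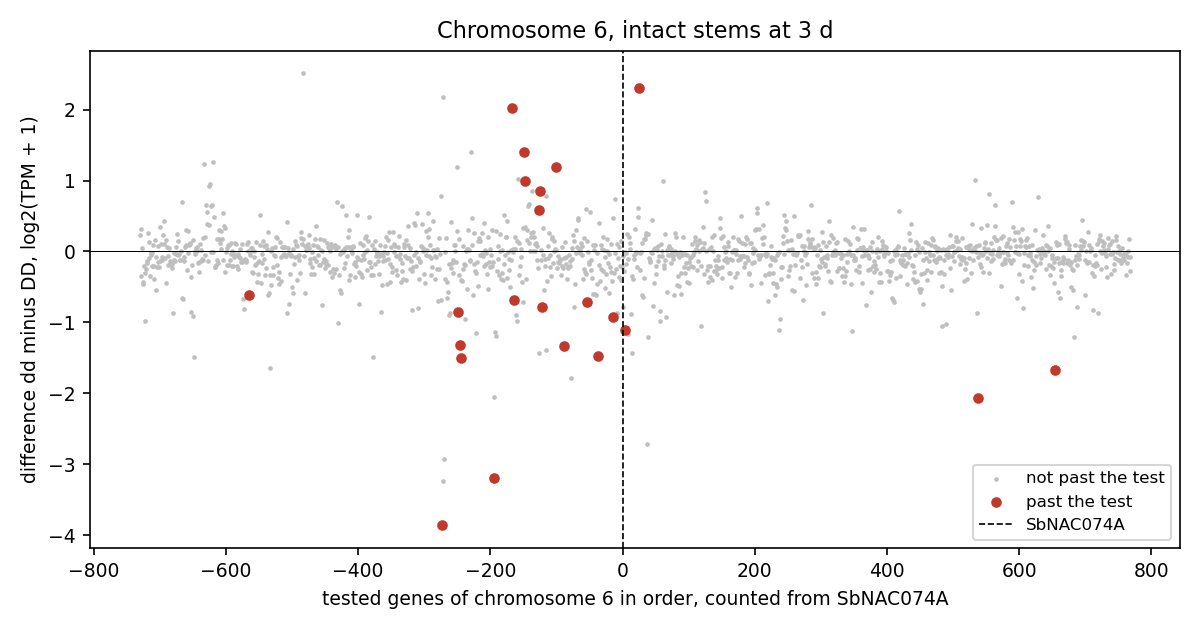
Difference between *dd* and *DD* intact stems at 3 d (log2(TPM + 1), vertical) for the 1499 tested genes of chromosome 6 in the order of their identifiers, counted from *SbNAC074A* (dashed line). Red points are the 22 genes past the test, and 18 of them lie in the 3 runs of 100 genes that end 49 genes after *SbNAC074A*.

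The chromosome 6 genes past the test are of unrelated kinds and differ in both directions. A lipoyl synthase gene (*Sobic.006G103100*), which makes the lipoyl cofactor of mitochondrial enzymes, was lower in *dd* at 51.9, 47.6, 49.2 and 51.1 TPM against 88.7, 93.4, 91.2 and 92.3 TPM in *DD* (-0.86 ± 0.06, adjusted p = 2.92e-09). A gene annotated as a serine endopeptidase (*Sobic.006G113500*) was at 0.946, 0.356, 2.45 and 0.937 TPM in *dd* against 19.3, 15.2, 17.4 and 19.0 TPM in *DD* (-3.19 ± 0.29, adjusted p = 2.52e-07). An undescribed gene (*Sobic.006G099001*) was at 66.1, 91.3, 55.9 and 93.3 TPM in *DD* and at 1.78, 1.99, 33.7 and 1.60 TPM in *dd*, where replicate 3 stood far above the others (-3.86 ± 0.75, adjusted p = 0.009). Its call was lost in 13 of 19 alternatives (adjusted p up to 0.0747), among them the fits without any 1 of the 8 samples except *dd* replicate 3. Smaller falls with little spread were those of genes for the gamma-tubulin complex component GCP2 (*Sobic.006G137700*, -0.71 ± 0.09), a RING finger protein (*Sobic.006G144000*, -0.92 ± 0.10) and glucose-6-phosphate dehydrogenase (*Sobic.006G126300*, -0.78 ± 0.12), the first enzyme of the oxidative pentose phosphate pathway. On all other chromosomes together 36 genes passed, 33 lower and 3 higher.

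The same 58 genes were followed in the other 3 stem settings, which share no sample with this contrast but share the fit and its estimate of the spread. In decapitated stems at 3 d, 39 of them passed the test in the same direction, where 2.29% of all genes passed in either direction. In intact stems at 10 d, 13 did so beside 0.136% of all genes, and in decapitated stems at 10 d, 14 beside 0.443%. The direction was that of intact stems at 3 d for 56 of 58 genes in each setting, and none passed with the opposite sign. Of the 58 genes, 9 passed in all 3 other settings and 18 in none. Because the genes were chosen by the 3 d contrast, a smaller size elsewhere is given as a description only.

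Genes on chromosome 6 and genes elsewhere gave different counts. Of the 22 on chromosome 6, all kept their direction in each setting, and 11, 18 and 12 passed in intact stems at 10 d, decapitated stems at 3 d and decapitated stems at 10 d. Of the 36 elsewhere, 2, 21 and 2 passed. The median size for chromosome 6 was 1.26 in intact stems at 3 d and 0.88, 1.09 and 0.90 in those settings, and elsewhere 1.68 at first and then 0.58, 1.15 and 0.47.

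Values of some leading genes across the settings are given as examples. *Sobic.003G436200* kept *dd* means of 8.59 to 10.9 TPM and *DD* means of 0.325 to 0.766 TPM in all 4 settings, and *Sobic.006G152100* was listed at 0 in all *DD* stems. *SbXCP1* averaged 51.9 TPM in *DD* intact stems at 3 d, 12 ± 15.6 TPM (SD, n = 3) at 10 d, 33.6 ± 37.6 TPM (SD, n = 4) in decapitated stems at 3 d and 1.92 ± 3.14 TPM (SD, n = 3) in decapitated stems at 10 d, and *dd* samples never exceeded 0.355 TPM. The hydrophobic seed protein gene averaged 121, 25.8, 76.2 and 3.63 TPM in *DD* in the same order, with *dd* samples at 0.639 TPM or below. For both genes the 4 *DD* samples of intact stems at 3 d lay above the 3 at 10 d (for *SbXCP1*, 31.8 to 84.1 against 2.62 to 30 TPM) and overlapped those of decapitated stems at 3 d, and in decapitated stems at 10 d *DD* and *dd* overlapped. *SbNAC074A* averaged 21.6 ± 8.37 TPM (SD, n = 4) in *DD* and 24.8 ± 20.2 TPM (SD, n = 4) in *dd* in intact stems at 3 d, and 6.30 and 2.61 TPM in intact stems at 10 d.

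**Figure D4:**
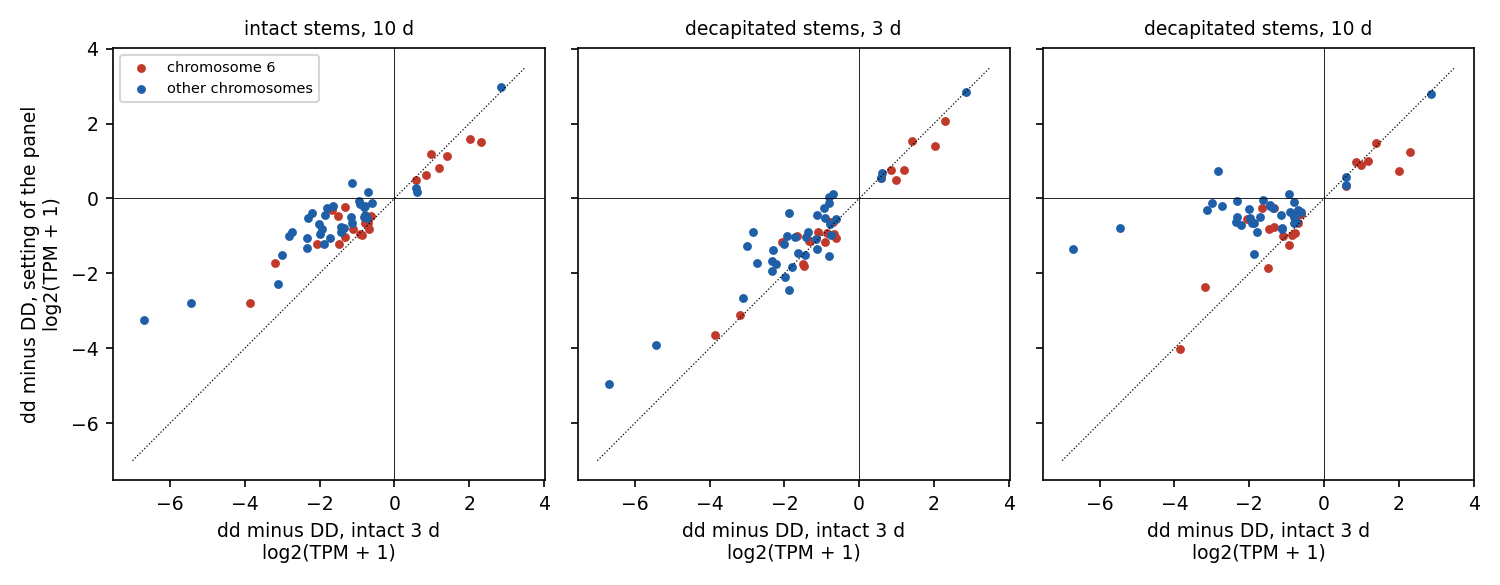
Difference between *dd* and *DD* (log2(TPM + 1)) of the 58 genes in intact stems at 10 d, decapitated stems at 3 d and decapitated stems at 10 d (vertical, 1 panel each) against intact stems at 3 d (horizontal), with the dotted line at equal size. Red points (22 genes of chromosome 6) stay closer to the line than blue points (36 genes elsewhere), whose median size goes from 1.68 to 0.58, 1.15 and 0.47.

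No gene showed a genotype difference that differed between settings past the test. For the change of the genotype effect from 3 to 10 d in intact stems, 0 of 16942 genes passed (smallest adjusted p = 0.135) and 1431 had an unadjusted p under 0.05, 31 of the 58 among them. For the change between decapitated and intact stems at 3 d, 0 genes passed (smallest adjusted p = 0.795). Of the 16942 genes, 1036 had an unadjusted p under 0.05, 12 of the 58 among them. Both contrasts subtract the intact 3 d difference by which the 58 genes were chosen. An excess of low p among the 58 can therefore come from that choice alone, and nothing is concluded from it. The lowest unadjusted p among the 58 for the change with day was that of the response regulator gene *Sobic.004G178000* (3.68e-05, adjusted p = 0.208), at -1.13 in intact stems at 3 d and 0.43 at 10 d. Differences between settings in the counts above were thus not detectable gene by gene.

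Genes of sugar storage were examined as groups, and none of the 6 groups that follow passed the test beyond the raffinose synthase gene above. Proton pumps of the vacuole drive the uptake of sugar into it, and 15 of 23 pump subunit genes were higher in *dd* and 1 lower at an unadjusted p under 0.05, beside 5.68% and 10.5% of all genes, with none past the test. Their median difference was 0.27, and 0.33 and 0.24 under median-of-ratios and quantile scaling. Summed over the list, *DD* samples held 5496 to 6882 TPM and *dd* samples 7092 to 8746 TPM, without overlap. The subunit A gene (*Sobic.004G060100*, chosen after its values were seen) measured 368, 452, 378 and 502 TPM in *DD* and 520, 757, 615 and 585 TPM in *dd* (0.54 ± 0.14, adjusted p = 0.0589). Subunit B (*Sobic.010G172500*) gave 723, 834, 715 and 940 TPM against 1065, 1506, 1160 and 990 TPM (0.55 ± 0.14, adjusted p = 0.0485), and a proteolipid subunit (*Sobic.005G055000*) 783, 795, 722 and 897 TPM against 903, 1051, 1001 and 964 TPM (0.30 ± 0.07, adjusted p = 0.0386). The groups did not overlap in any of these 3 genes. Without *dd* replicates 3 and 4, 10 of the 23 genes were higher at an unadjusted p under 0.05.

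Starch genes leaned the same way with more spread. Of 29 measured genes, 6 were higher and 1 lower at an unadjusted p under 0.05, with a median of 0.11 that became -0.02 without *dd* replicates 3 and 4, where 2 were higher. Their summed level was 1776 to 2813 TPM in *DD* and 2977 to 5777 TPM in *dd*. A starch synthase gene (*Sobic.010G047700*) gave 109, 124, 88.0 and 105 TPM in *DD* and 178, 259, 240 and 405 TPM in *dd* (1.29 ± 0.31, adjusted p = 0.0363). The ADP-glucose pyrophosphorylase large subunit gene *Sobic.009G245000*, for the committed step of starch synthesis, gave 795, 801, 429 and 710 TPM against 1207, 999, 1655 and 2023 TPM (1.09 ± 0.30, adjusted p = 0.071), and a branching enzyme gene (*Sobic.006G066800*) 965, 940, 418 and 769 TPM against 838, 827, 1326 and 1884 TPM (0.64 ± 0.31, adjusted p = 0.309). In the last of these the high values in *dd* were those of replicates 3 and 4, and the groups overlapped. Isoamylase 1 (*Sobic.007G204600*) and an alpha-glucan phosphorylase (*Sobic.001G083900*) gave 0.05 ± 0.32 and 0.35 ± 0.44 (adjusted p = 0.956 and 0.73).

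Among sugar carriers and enzymes the values went both ways. Of 24 sugar transporter genes, 3 were higher and 3 lower at an unadjusted p under 0.05 (median -0.19). The tonoplast monosaccharide transporter-type gene *Sobic.004G099300* (chosen after its values were seen) gave 175, 231, 160 and 198 TPM in *DD* and 454, 475, 362 and 289 TPM in *dd* (1.03 ± 0.23, adjusted p = 0.0235), and its relative *Sobic.001G312900* 388, 444, 404 and 504 TPM against 560, 628, 543 and 514 TPM (0.37 ± 0.14, adjusted p = 0.202). A SWEET gene (*Sobic.004G136600*) was at 374 to 499 TPM in *DD* and 321 to 423 TPM in *dd* (adjusted p = 0.819). Of 19 sucrose genes, 2 were higher and 3 lower at an unadjusted p under 0.05 (median -0.09), with sucrose synthase (*Sobic.001G378300*) at 242 to 265 and 219 to 246 TPM (adjusted p = 0.601) and the invertase gene *SbCIN5* (*Sobic.004G163800*) at 31.4 to 35.9 and 34.0 to 38.2 TPM (adjusted p = 0.568). The major facilitator gene *Sobic.003G131600* lay at 1.21, 2.30, 3.12 and 2.64 TPM in *DD* and 4.54, 4.24, 3.81 and 6.03 TPM in *dd* (0.79 ± 0.23, adjusted p = 0.0908). Of 22 trehalose and raffinose genes, 1 was higher past the test, and 5 were higher and 1 lower at an unadjusted p under 0.05. Their median was -0.09, with 10 positive and 12 negative differences. Their summed level was 1029 to 1180 TPM in *DD* and 1720 to 2010 TPM in *dd*, without overlap. Another raffinose synthase gene (*Sobic.002G075800*, chosen after its values were seen) gave 208, 292, 185 and 355 TPM against 757, 1028, 754 and 630 TPM (1.63 ± 0.37, adjusted p = 0.0264). Of 19 water channel genes, 1 was higher and 2 were lower at an unadjusted p under 0.05 (median -0.10).

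For wall and lignin genes the counts stand beside 10.5% lower and 5.68% higher for all genes at an unadjusted p under 0.05. The median difference of all genes was -0.06. No member of the lignin list or of the cellulose and xylan list passed the test. Of 35 genes of lignin synthesis, 10 were lower and none higher at an unadjusted p under 0.05 (median -0.21, and -0.16 and -0.11 under the other scalings), and without *dd* replicates 3 and 4 the counts were 3 lower and 2 higher. A cinnamyl alcohol dehydrogenase gene (*Sobic.004G071000*), for the last step to the lignin alcohols, gave 266, 287, 393 and 251 TPM in *DD* and 220, 166, 187 and 177 TPM in *dd*, without overlap (-0.66 ± 0.16, adjusted p = 0.0317). A hydroxycinnamate CoA ligase-type gene (*Sobic.004G062500*) gave 371, 512, 931 and 427 TPM against 423, 251, 231 and 228 TPM, with *dd* replicate 1 inside the *DD* range (-0.94 ± 0.35, adjusted p = 0.195). Of 47 genes of cellulose and xylan synthesis, 5 were lower and none higher at an unadjusted p under 0.05 (median -0.18), and of 76 wall loosening and pectin genes 1 was higher and 2 were lower past the test (median -0.06), the cellulase and both expansins already described. The highest cellulose synthase gene of the list (*Sobic.002G118700*) lay at 358 to 594 TPM in *DD* and at 265 to 878 TPM in *dd* (adjusted p = 0.761).

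Genes of photosynthesis and of cell division had no member past the test. With all samples fitted, the counts stand beside 10.5% lower and 5.68% higher for all genes at an unadjusted p under 0.05. Of 59 genes of the light reactions, 17 were lower and 2 higher at an unadjusted p under 0.05 (median -0.38, beside -0.06 for all genes), and 4 were lower and 1 higher without *dd* replicates 3 and 4. The most abundant, an *LHCB1* gene of the light-harvesting complex (*Sobic.009G234600*), gave 1586, 2570, 3088 and 2625 TPM in *DD* and 2389, 2460, 1581 and 2106 TPM in *dd* (-0.19 ± 0.29, adjusted p = 0.784), with *DD* replicate 1 among the lowest. Of 91 cell cycle and core histone genes, 21 were lower and 2 higher (median -0.25), and without *dd* replicates 3 and 4, 29 were lower and 5 higher. Of 178 cytosolic ribosomal protein genes, 16 were higher and 1 lower (median 0.06), a median that was -0.03 without *dd* replicates 3 and 4. Of 67 proteasome genes, 12 were higher and 1 lower, and 1 (*RPN7*) passed.

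**Figure D5:**
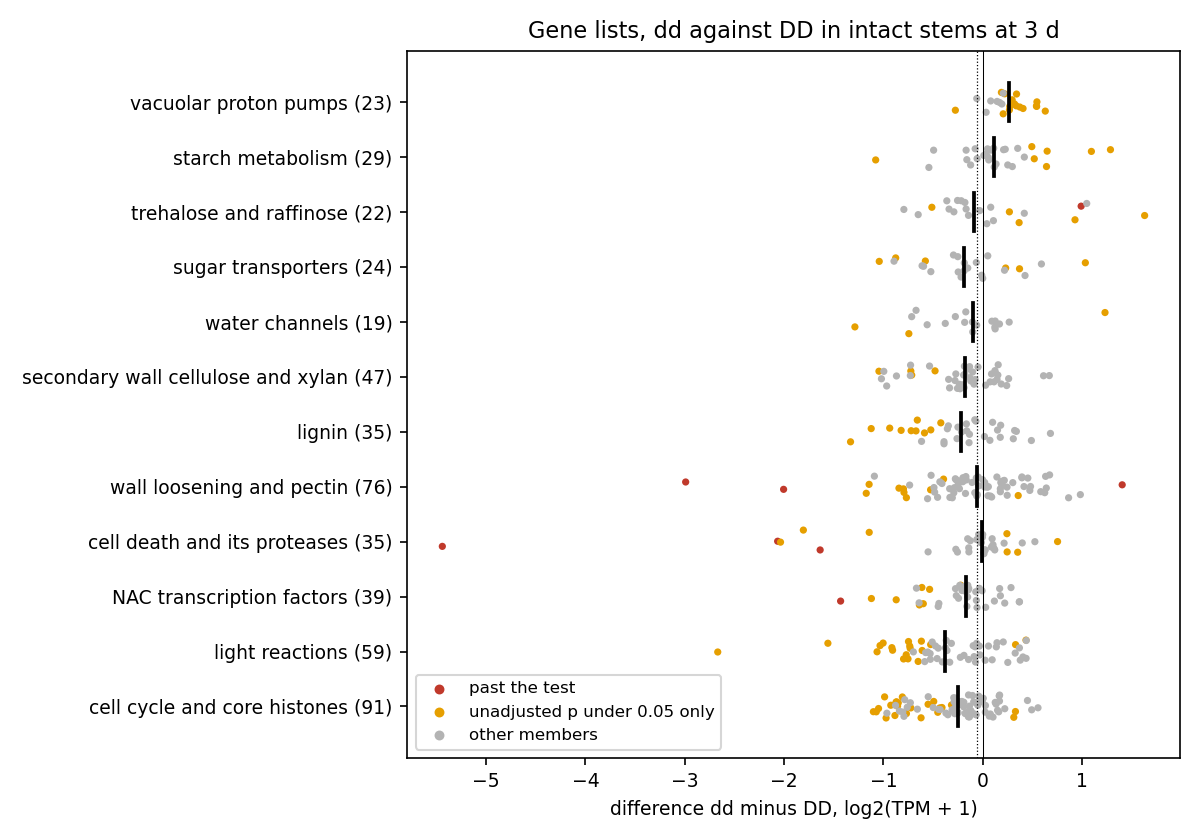
Difference between *dd* and *DD* intact stems at 3 d (log2(TPM + 1), horizontal) for the measured members of 12 gene lists, with 1 point per gene, the black bar at the list's median and the dotted line at the median of all genes (-0.06). Red points passed the test and orange points had an unadjusted p under 0.05 only. The pump genes centre at 0.27 and the light reaction genes at -0.38.

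Markers of the cell types that the internode could hold were compared as summed TPM. The green tissue markers (18 of 19 with a negative difference, none past the test) summed to 4434 to 8750 TPM in *DD* and 3953 to 5616 TPM in *dd*, and the dividing tissue markers (40 of 44 negative, none past the test) to 3309 to 4140 and 2627 to 3434 TPM. Xylem markers (7 of 7 negative) summed to 575.9 to 798.3 TPM in *DD* and 446.8 to 738 TPM in *dd*, phloem markers (9 of 14 negative) to 948.3 to 1120 and 870.1 to 1169 TPM, and the 5 epidermis markers to 80.7 to 117 and 65.3 to 120 TPM. The ranges of the 2 genotypes overlapped in all 5 sets. At an unadjusted p under 0.05, 7 green tissue, 16 dividing tissue, 2 xylem, 3 phloem and 2 epidermis markers were lower and 1 green tissue marker was higher. Of all genes, 10.5% were lower and 5.68% higher at that threshold. The median difference of all genes was -0.06, so most genes had a negative difference, though not in every list. Marker medians were -0.53 for green tissue, -0.52 for dividing tissue, -0.28 for xylem, -0.17 for phloem and -1.06 for epidermis. No marker of these 5 sets had a mean of 0 in either genotype. The part of these tissues in the values of wall, lignin, light reaction and cell cycle genes was not tested.

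Leaves of the same setting, intact and at 3 d, show which of the differences also stood there, as values only, from 3 samples a genotype in a separately made table. Of the 58 genes, 41 were in the leaf table. Of 18 on chromosome 6, 11 kept the direction and 9 of these did so without overlap, beside 18 and 4 of 23 elsewhere. Over all 16386 genes of the leaf table the 3 *dd* samples lay all below the 3 *DD* samples for 5.42% and all above them for 8.89%. The DUF3615 gene (*Sobic.003G436200*) lay at 0.155 to 0.281 TPM in *DD* leaves and 5.13 to 6.44 TPM in *dd* leaves, and the ribosome recycling factor gene (*Sobic.006G129900*) at 3.19 to 6.38 and 24.9 to 41.3 TPM. The raffinose synthase gene *Sobic.006G122400* went the other way, at 44.7 to 53.7 TPM in *DD* and 15.7 to 21.0 TPM in *dd* leaves. *SbXCP1* was at 0.0893 to 0.394 TPM in *DD* and 0.190 to 9.92 TPM in *dd* leaves, overlapping, in contrast to its stem values.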

How the data were processed

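The authors deposited TPM, 1 column a sample. The stem table lists 16942 genes, each above 3 TPM in 2 samples or more. The submitters' processing notes name FastQC, Trimmomatic, STAR and DESeq2 without versions, and how TPM were computed and the genome build are not given in the sources used here. TPM keep no record of depth, which is unknown, so precision is known only from the spread between samples. Labels call the replicates biological. The p-values rest on the spread between replicates as estimated over all 29 stem samples, not on the 8 samples of this contrast alone. Deposited columns of the authors' own comparisons (fold changes and p-values) and their gene clusters were not used.

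Values were taken as log2(TPM + 1) and fitted with limma 3.58.1 in R 4.3.3 (lmFit, eBayes with a trend) over all 29 stem samples as 8 group means, which share 1 estimate of the spread. The script was tested on simulated data. Lists came from matches in the deposited gene descriptions, missing for 1686 genes. The members, lists and naming rule were chosen with earlier results of these data known. Genes named are the 12 largest rises and falls (9 rises qualified) past the test with a description and no overlap, up to 4 members past the test per list or else the 2 highest in TPM, the 6 DEGs with the highest TPM, and genes that the study names. Others past the test are named to complete a group, after their values were seen. The alternatives tried were a smaller and a larger pseudocount (0.1 and 3), only genes averaging 10 TPM or more, scaling by median of ratios or quantiles, other variance models, fewer samples in the fit, a replicate block, a threshold of 0.05 and leaving out each of the 8 samples. A fit without *dd* replicates 3 and 4 was added after seeing the data.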

Additional observations from a re-analysis of the deposited data

Results flagged for a closer look

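In groups of 4 samples, 1 sample stood far from the other 3 on the log2(TPM + 1) scale (by the gap to its neighbour over the group's range) in 8 of 90 groups of 45 genes, where chance gives about 1 in 20. In *dd*, replicate 3 was at 33.7 TPM for *Sobic.006G099001* against 1.60 to 1.99 TPM in the others, replicate 4 at 27.0 TPM for the response regulator gene *Sobic.004G178000* against 15.6 to 17.1 TPM, and replicate 1 at 110 TPM for *Sobic.002G244100* against 130 to 135 TPM and at 182 TPM for the plastid glucose carrier gene *Sobic.003G084000* against 211 to 212 TPM. In *DD*, replicate 2 was at 222 TPM for *Sobic.007G126800* against 118 to 130 TPM, and replicate 1 at 10.6 TPM for *Sobic.001G100000* against 14.63 to 14.96 TPM. *DD* replicate 3 was low for the starch genes *Sobic.003G358600* (71.4 TPM against 131 to 136 TPM) and *Sobic.010G273800* (86.5 TPM against 118 to 125 TPM). The cause was not tested.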

How the results depend on the processing

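The 58 genes kept their sign in every alternative that tested them, and 37 passed the test whichever of the 8 samples was left out. With a mean of at least 10 TPM, which leaves 11626 genes to test, 24 genes passed (6 higher and 18 lower in *dd*, 9 DEGs, 12 on chromosome 6), and of these 7 also passed in intact stems at 10 d and 20 in decapitated stems at 3 d. With only the 8 samples fitted, and so fewer samples behind the spread, 23 passed (7 higher, 16 lower, 16 DEGs, 12 on chromosome 6). Of the 58 genes, 19 were among them and 39 were lost. With a threshold of 0.05, 248 passed (86 higher, 162 lower, 92 DEGs, 50 on chromosome 6), of which 30, 157 and 53 passed in intact stems at 10 d, decapitated stems at 3 d and decapitated stems at 10 d. Quantile normalization gave 17 higher and 40 lower and moved the share higher from 17.2 to 29.8%. Without *dd* replicates 3 and 4, 23 passed (14 lower, 17 DEGs, 14 on chromosome 6, 17 also in decapitated stems at 3 d), 19 of the 58 among them, and the cause was not tested. Leaving out single samples gave 39 to 96 genes past the test (9 to 18 higher, 28 to 78 lower, 25 to 51 DEGs). Both tests of a change in the genotype effect stayed at 0 genes in every alternative run.

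Replicate numbers are shared by the genotypes, but the correlations of same-numbered samples' deviations from their group means (-0.20, 0.52, -0.11 and -0.08) do not pair them. With a replicate block 53 genes passed, 51 of the 58 among them, with 10 higher, 43 lower and 36 DEGs.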
